A study of Homo sapiens with 4 samples.

Results

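The genes described here are 8 regulators of cellular sterol supply: the transcription factors SREBF1 and SREBF2, their escort SCAP, the retention factors INSIG1 and INSIG2, the sterol carrier STARD4, the ubiquitin ligase MYLIP and the sterol exporter ABCA1. They were taken by symbol, as 8 of the 15220 genes with counts, by a rule that uses no measured value. The symbols themselves were chosen with earlier results of these data known, so counts of called members are descriptions and not those of a set chosen blind. RNA-seq compared 2 libraries of PANC-1, a human pancreatic ductal adenocarcinoma cell line labelled wild type, with 2 libraries of PZT-2, a knockdown line made from it. PZT-2 is 1 clone carrying shRNAs against H2A.Z.1 and both isoforms of H2A.Z.2, forms of the histone variant H2A.Z, so the knockdown and what sets this clone apart from its parent cannot be told apart. By the study's methods, the knockdown clones were also transduced with lentiviral particles and selected in puromycin. PANC-1 is the wild type, so these steps cannot be told apart from the knockdown either. Both lines were kept in DMEM medium with 10% FBS and were labelled with the same passages, 12 to 13. The study calls the 2 libraries of each line biological replicates, without saying whether they were grown as separate cultures, and the p-values measure only the spread between these libraries.

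SREBF1 and SREBF2 encode the sterol regulatory element-binding proteins, transcription factors made as precursors in the membrane of the endoplasmic reticulum. When membrane sterol is low, SCAP carries the precursors to the Golgi apparatus, where proteases release the active part. When it is high, INSIG proteins hold SCAP and its cargo back. The released factors switch on genes of cholesterol and fatty acid synthesis and of lipoprotein uptake, INSIG1 among them, while oxysterols act through liver X receptors to switch on ABCA1, MYLIP and SREBF1. Only mRNA was measured here, and neither the proteins, their cleavage nor sterol levels were.

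Promoter sequences are shown for 3 of the 4 genes that fell in PZT-2. These 3 were picked because, beside Sp1 boxes, they hold the letters of a CCAAT box, an element known from sterol-regulated promoters. SREBF1, which fell, lacks the box, while MYLIP, which did not pass the test, holds it, as do 34.6% of all promoter windows. The sequences are the 250 bases before the annotated start in RefSeq on GRCh38.p14, 5′ to 3′ on the strand of the gene. SREBF2 is at chr22:41832855-41833104 (plus strand), INSIG1 at chr7:155297628-155297877 (plus strand) and STARD4 at chr5:111512536-111512785 (minus strand). Capitals mark the sterol element TCACCCCAC, the CCAAT box bound by NF-Y, the Sp1 box GGGCGG and the E-box CACGTG, and a match on the other strand appears as its reverse complement, such as ATTGG.

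SREBF2: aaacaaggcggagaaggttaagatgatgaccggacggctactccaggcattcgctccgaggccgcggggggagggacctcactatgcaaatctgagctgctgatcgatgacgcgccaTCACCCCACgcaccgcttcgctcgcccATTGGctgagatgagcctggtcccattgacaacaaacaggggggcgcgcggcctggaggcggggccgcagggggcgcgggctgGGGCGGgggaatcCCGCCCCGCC
INSIG1: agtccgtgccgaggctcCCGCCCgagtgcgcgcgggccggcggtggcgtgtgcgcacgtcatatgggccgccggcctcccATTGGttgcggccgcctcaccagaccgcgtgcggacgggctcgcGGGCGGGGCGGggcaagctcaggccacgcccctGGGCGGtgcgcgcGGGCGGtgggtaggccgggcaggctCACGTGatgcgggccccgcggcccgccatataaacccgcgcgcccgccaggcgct
STARD4: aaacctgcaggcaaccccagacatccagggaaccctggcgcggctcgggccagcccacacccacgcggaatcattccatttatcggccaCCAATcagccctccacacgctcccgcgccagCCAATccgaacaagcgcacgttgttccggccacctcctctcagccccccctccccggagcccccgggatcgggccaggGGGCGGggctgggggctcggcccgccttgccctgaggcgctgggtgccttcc

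All 8 genes were found in the table of 35116 promoter windows, each of 300 bases with 250 before and 50 after the start, INSIG2 with 2 windows. The sterol element TCACCCCAC was present in SREBF2 alone among the 8 genes, starting 133 bases before the start, and in 0.43% of all windows. Its shorter core CACCCCAC, which lies within it, was also found in ABCA1 at 228 bases before the start and in 2.79% of all windows. The CCAAT box was present in SREBF2, INSIG1, STARD4 and MYLIP, at 106, 170, 161 and 109 bases before the start, with a further box at 130 in STARD4 and at 68 in MYLIP. It was in 34.6% of all windows. The E-box CACGTG was found in SCAP, INSIG1 and ABCA1 (7.26% of all windows), and the Sp1 box in all 8 genes (45.0%). The exact letters AGGTCA, the repeat unit of liver X receptor elements, were found in 0 of the 8 genes (13.8% of all windows). So was their exact direct repeat with 4 bases between (0.0199%). Elements that depart from these letters were not searched for, so their presence in these windows, that of ABCA1 included, was not tested. All of these are exact matches of letters on either strand, not sites shown to be bound.

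SREBF1 and SREBF2 also each host a microRNA of the miR-33 family inside an intron. The mature sequences are shown because both carry the same seed, bases 2 to 8, given in capitals, and because ABCA1 is a known target of the family.

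hsa-miR-33a-5p: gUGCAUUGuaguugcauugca
hsa-miR-33b-5p: gUGCAUUGcuguugcauugc

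The first lies at chr22:41900949-41900969 (plus strand) in intron 17 of a transcript of SREBF2, and the second at chr17:17813897-17813916 (minus strand) in intron 16 of a transcript of SREBF1 (GRCh38.p14, RefSeq sequences, GENCODE transcripts). Matches to the seed, CAATGCA, were counted in the annotated 3′ UTRs of the 8 genes. ABCA1 had 4 in 3313 bases, starting 135, 140, 150 and 1475 bases after the stop codon, SCAP had 1 and the other 6 genes had 0. The stretch from base 131 to base 160 holds 3 of them, the first 2 overlapping, with the matches in capitals.

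ABCA1: tattCAATGCAATGCAattCAATGCAatga

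Of 19115 genes, 8.43% had a match and 0.0628% had as many as ABCA1. Among 2190 genes with 3′ UTRs of similar length the shares were 17.1% and 0.0913%. The microRNAs were not measured by these mRNA libraries.

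The libraries held 12861320 to 15717347 estimated counts, and 15100 genes were tested. H2AFZ, which encodes H2A.Z.1, had 6389 and 6034 normalized counts in the PANC-1 libraries and 2212 and 2259 in the PZT-2 libraries. H2AFV, the gene of the H2A.Z.2 isoforms, had 3343 and 3452 in PANC-1 and 2590 and 2719 in PZT-2. Both fell, by 1.47 and 0.36 on the log2 scale (adjusted p = 6.26e-05 and 0.00573, quasi-likelihood test of edgeR, adjusted after Benjamini and Hochberg). Of 6 ductal and epithelial markers all had counts, with a summed level of 7319 and 7287 TPM in PANC-1 and 3902 and 3826 TPM in PZT-2. KRT8, KRT18 and KRT19 were lower and SOX9 was higher in PZT-2. Of 6 acinar markers 0 had counts, and of 6 leukocyte markers 3 did (1.70 to 3.59 TPM in sum). CD14 was higher in PZT-2, but it had enough counts to be tested only through PZT-2. ITGAM was lower in PZT-2 and did not pass (log2 fold change -0.48), and LYZ had too few counts to be tested. Counts were also found for 2 of 6 fibroblast and endothelial markers and 1 of 6 hepatocyte and adipocyte markers. The former summed to 10.8 and 11.5 TPM in PANC-1 and 3.68 and 3.03 TPM in PZT-2, with COL1A1 lower. The part of these differences in the results below was not tested. In bulk RNA, fewer cells of a type and less RNA per cell cannot be told apart.

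Of the 8 genes, 5 passed the test between PZT-2 and PANC-1 at an adjusted p of 0.05, where 28.4% of all genes tested did. SREBF1, SREBF2, INSIG1 and STARD4 fell, and 13.7% of genes tested were called lower. SCAP rose, and 14.7% of genes tested were called higher. MYLIP, ABCA1 and INSIG2 did not pass. The libraries of the cell lines did not overlap for 7 of the 8, all but INSIG2, and 66.3% of all genes tested did not overlap. All 8 had enough counts to be tested, at least 5 in at least 2 libraries, but STARD4 did so only through PANC-1, where it is high. Neither its call among the 5 nor its lack of overlap among the 7 therefore adds anything to these counts. With at least 10 counts in all 4 libraries STARD4 and INSIG2 dropped out, and 4 of the remaining 6 genes were called, where 35.9% of all genes tested were.

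**Figure D1:**
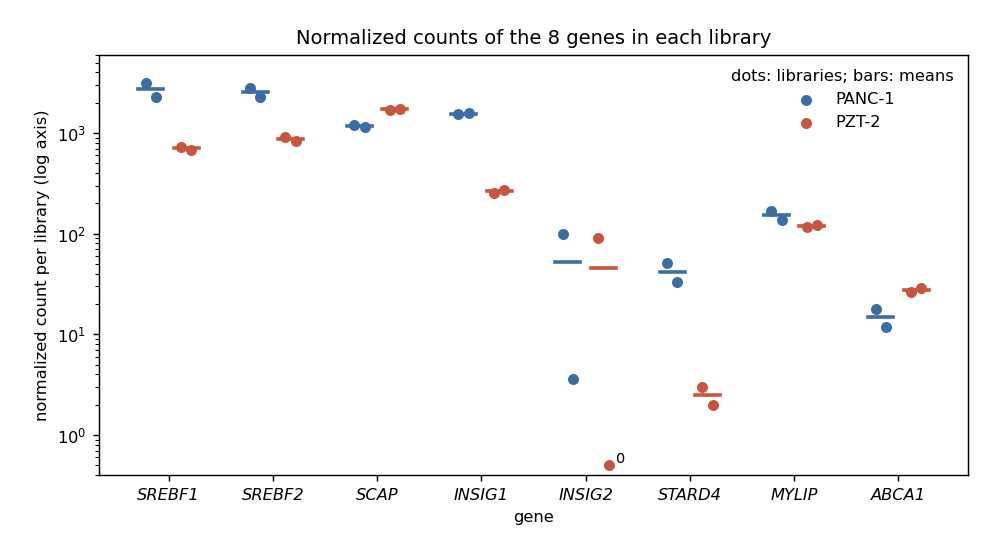
Normalized counts (log axis) of the 8 genes, with a dot for each library and a bar for the mean of each cell line (n = 2). The PZT-2 libraries lie below the PANC-1 libraries for SREBF1, SREBF2, INSIG1, STARD4 and MYLIP and above them for SCAP and ABCA1, while INSIG2 has a high and a low library in each line (the PZT-2 library at 0 is drawn at the bottom).

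SREBF1, whose product is best known for switching on fatty acid synthesis, had 3153 and 2288 normalized counts in the PANC-1 libraries and 731 and 675 in the PZT-2 libraries. A normalized count is a count scaled to the effective size of its library. Both PZT-2 libraries were far below both PANC-1 libraries, and the PANC-1 libraries were also apart from each other. The means were 2721 ± 612 and 703 ± 39.1 (SD, n = 2), and the log2 fold change of PZT-2 against PANC-1 was -1.95 with a standard error of 0.154 and a 95% interval of -2.32 to -1.58. SREBF1 was thus 3.86-fold lower (adjusted p = 0.000548, the same edgeR test and adjustment over all genes, which gives every adjusted p of a gene below).

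SREBF2, whose product acts mainly on cholesterol synthesis and lipoprotein uptake, had 2824 and 2276 normalized counts in PANC-1 and 907 and 841 in PZT-2. The cell lines did not overlap here either. It was 2.92-fold lower in PZT-2, with a log2 fold change of -1.54 (standard error 0.112, interval -1.81 to -1.27, edgeR adjusted p = 0.000450).

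The counts of SREBF1 came from 2 RefSeq transcripts. NM_001321096 had 2240 and 1552 normalized counts in PANC-1 and 380 and 345 in PZT-2. NM_004176 had 911 and 747 in PANC-1 and 350 and 328 in PZT-2. Both were lower in each PZT-2 library than in either PANC-1 library, and 51.2% of all transcripts tested likewise did not overlap between the lines. However, 0 of the 2 passed in the edgeR test over all 30403 transcripts, which called 0.148% of them. NM_001321096 had a log2 fold change of -2.39 (standard error 0.222, edgeR unadjusted p = 0.000661, adjusted p = 0.0680). For NM_004176 it was -1.29 (standard error 0.132, edgeR unadjusted p = 0.000925, adjusted p = 0.0714). Both transcripts passed with DESeq2 and with a stricter filter on low counts, so the call rests on the test and the filter. A further transcript that the authors tested, NM_001005291, has no counts in the table used here, so the sum for SREBF1 may be incomplete.

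NM_001321096 made up 71.1% and 67.5% of the SREBF1 counts in PANC-1 and 52.1% and 51.2% in PZT-2. Its share was lower by 17.6 percentage points in PZT-2, and the shares of the cell lines did not overlap. The shift itself was not tested. Of 5182 genes with at least 2 transcripts and a mean of at least 200 counts, 286 (5.52%) shifted by as much or more, and the median shift was 3.38 points. Transcripts of a gene share most of their reads, so their split is an estimate.

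**Figure D2:**
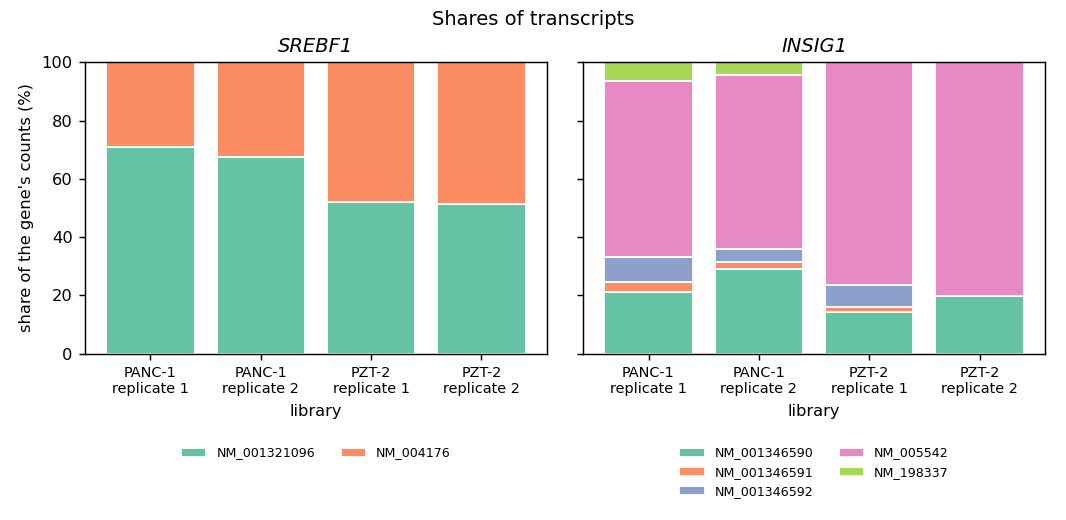
Share of each gene's counts (%) that was assigned to each RefSeq transcript of SREBF1 and INSIG1, with 1 bar for each library. NM_001321096 takes 71.1% and 67.5% of SREBF1 in the PANC-1 bars and 52.1% and 51.2% in the PZT-2 bars, and NM_198337 takes 6.46% and 4.43% of INSIG1 in PANC-1 and 0 in PZT-2.

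INSIG1, which retains SCAP in the endoplasmic reticulum and is itself a target of the factors it restrains, had 1533 and 1572 normalized counts in PANC-1 and 252 and 274 in PZT-2. The replicates of each line were close to each other. INSIG1 was 5.91-fold lower in PZT-2, with a log2 fold change of -2.56 (standard error 0.0767, interval -2.75 to -2.38, edgeR adjusted p = 5.11e-05). Its standard error was smaller than those of SREBF1 and SREBF2.

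The counts of INSIG1 were spread over 5 transcripts. NM_001346590 and NM_001346591 carried no symbol and were assigned to INSIG1 by RefSeq. With only transcripts that carried a symbol, the log2 fold change of INSIG1 was -2.37. NM_005542 held most of them, 924 and 940.0 normalized counts in PANC-1 and 192 and 219 in PZT-2, and it was the only one of the 5 that passed among all transcripts (log2 fold change -2.18, edgeR adjusted p = 0.0445). NM_001346590 had 326 and 459.5 in PANC-1 and 36.2 and 54.2 in PZT-2, and did not pass (log2 fold change -3.12, edgeR adjusted p = 0.0732). NM_198337 had 88 and 77 counts in PANC-1 and 0 in both PZT-2 libraries, so it was at least 55.3-fold lower against a floor of 3 counts over both PZT-2 libraries, and its edgeR adjusted p was 0.0928. NM_001346592 and NM_001346591, which had 0 counts in 1 PZT-2 library each, did not pass (edgeR adjusted p = 0.469 and 0.299). The libraries of the cell lines did not overlap for any of the 5, beside the 51.2% of all transcripts. However, NM_198337, NM_001346591 and NM_001346592 met the filter of at least 5 counts in at least 2 libraries only with PANC-1, where they are high. Their lack of overlap therefore adds nothing.

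INSIG2, the second retention factor, had 100.1 and 3.61 normalized counts in PANC-1 and 90.6 and 0 in PZT-2. Each line thus had 1 library near 100 and 1 at or near 0, and the lines overlapped. The log2 fold change of -0.15 had a standard error of 1.49 and an interval of -3.74 to 3.44 (edgeR adjusted p = 0.957), so a change of INSIG2 of the size seen for INSIG1 was not detectable in either direction. Only NM_016133 of its 6 listed transcripts has counts in the table used here, and NM_001321329, which the authors tested, has none, so these values need not describe the whole gene.

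SCAP, the escort that INSIG proteins hold back, was the member that rose. It had 1206 and 1153 normalized counts in PANC-1 and 1708 and 1716 in PZT-2. Its replicates differed little, and the lines did not overlap. SCAP was 1.45-fold higher in PZT-2 (log2 fold change 0.54, standard error 0.0602, interval 0.39 to 0.68, edgeR adjusted p = 0.00171). Its transcripts NM_012235 and NM_001320044 had log2 fold changes of 0.52 and 0.54, and neither passed among all transcripts (edgeR adjusted p = 0.0732 and 0.155).

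SCAP lies on chromosome 3, and genes of that chromosome were higher in PZT-2 as a group. The 836 genes tested there had a median log2 fold change of 0.43, with 402 called higher (48.1%) and 22 called lower. The 10 tested genes beside SCAP, 5 on each side, had a median of 0.45 and a range of 0.02 to 1.03, with 6 called higher and 0 lower. The value of SCAP was therefore close to the middle of its chromosome and of its neighbours. The medians of the chromosomes of the other 7 genes lay between -0.13 and 0.12. Whether SCAP and the genes around it share a source of the difference was not tested.

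STARD4, which carries cholesterol between membranes, had 50.6 and 33.4 normalized counts in PANC-1 and 3.02 and 1.98 in PZT-2. These rest on 45 and 37 counts in PANC-1 and on 3 and 2 in PZT-2. The lines did not overlap, and the log2 fold change was -4.00 (standard error 0.497, interval -5.20 to -2.81, edgeR adjusted p = 0.00240). From the counts alone it was 16.5-fold lower, with a 95% interval of 6.78 to 52.1 that covers counting error only. On the log2(TPM + 1) scale, where low levels are compressed, the log2 fold change was -1.03, and without either PANC-1 library the gene had too few counts to be tested. Only NM_001308060 of its 10 listed transcripts has counts in the table used here, and NM_139164 and NM_001308057, both tested by the authors, have none, so the fall is shown for this transcript and not for the whole gene.

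MYLIP, which marks lipoprotein receptors for degradation, had 168 and 136 normalized counts in PANC-1 and 116 and 122 in PZT-2. The PZT-2 libraries were lower without overlap, by less than the distance between the PANC-1 libraries at the nearest point. The log2 fold change of -0.35 did not pass (standard error 0.156, interval -0.72 to 0.03, edgeR adjusted p = 0.150). ABCA1, which moves cholesterol out of the cell to apolipoproteins, had 18.0 and 11.7 normalized counts in PANC-1 and 26.2 and 28.7 in PZT-2. It was higher in both PZT-2 libraries, and the log2 fold change of 0.89 did not pass (standard error 0.375, interval -0.01 to 1.79, edgeR adjusted p = 0.126). It rests on 16 and 13 counts in PANC-1 and 26 and 29 in PZT-2, a ratio of 1.89 with a counting interval of 1.18 to 3.07. At this depth neither a difference of ABCA1 near 0 nor a rise well above the fitted one lies outside the interval of the fit.

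Levels were compared between genes as TPM, the share of transcripts after correction for length. In PANC-1, SREBF1 was at 94.3 and 68.3 TPM, INSIG1 at 65.7 and 67.5 TPM and SREBF2 at 67.6 and 54.7 TPM. SREBF2 and INSIG1 overlapped, and the lower SREBF1 library lay just above both, so the order of these 3 is not firm. SCAP followed at 37.9 and 36.1 TPM. Below it came MYLIP at 7.04 and 5.72 TPM, STARD4 at 1.45 and 0.963 TPM and ABCA1 at 0.214 and 0.140 TPM, none of which overlapped, with INSIG2 at 4.91 and 0.180 TPM spanning STARD4 and part of ABCA1. In PZT-2 the order was another one. SCAP was highest at 53.1 and 53.3 TPM, SREBF2 at 21.6 and 19.9 TPM and SREBF1 at 20.9 and 19.3 TPM overlapped, and INSIG1 was at 10.7 and 11.6 TPM. MYLIP followed at 4.83 and 5.07 TPM, then ABCA1 at 0.309 and 0.337 TPM and STARD4 at 0.0856 and 0.0559 TPM, with INSIG2 spanning these last 2 at 4.42 and 1.93e-06 TPM. STARD4 is represented here by 1 of 10 listed transcripts and INSIG2 by 1 of 6, so their places need not be those of the whole genes. The level of SREBF1 may be incomplete too, as it lacks NM_001005291.

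**Figure D3:**
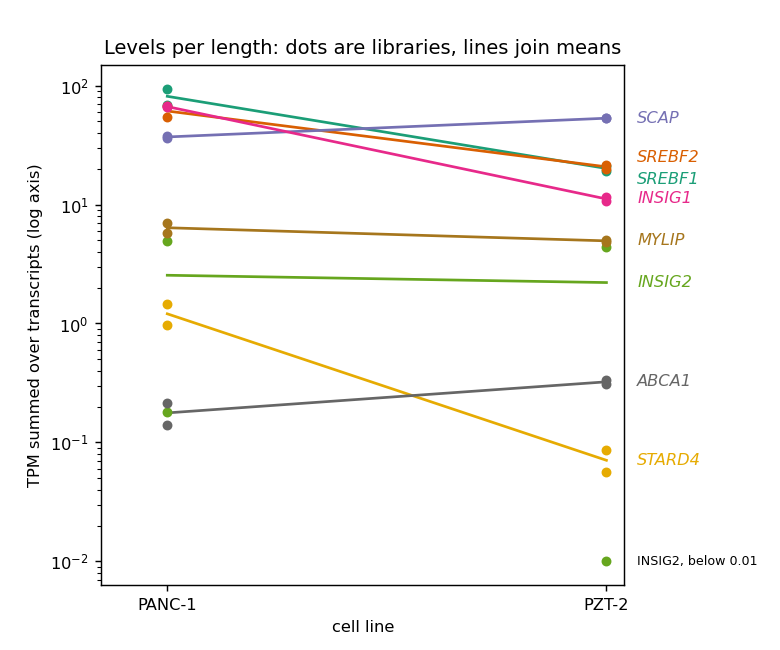
Level per length (TPM, log axis) of the 8 genes in PANC-1 and PZT-2, with a dot for each library and a line joining the means. SCAP lies below SREBF1, SREBF2 and INSIG1 in PANC-1 and above all 3 in PZT-2, and STARD4 and ABCA1 change places. STARD4 is drawn from 1 of 10 listed transcripts and INSIG2 from 1 of 6, so their places need not be those of the whole genes.

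The ratio of SCAP to INSIG1 in TPM was 0.577 and 0.535 in the PANC-1 libraries and 4.97 and 4.60 in the PZT-2 libraries. INSIG1 thus exceeded SCAP in each PANC-1 library, and SCAP exceeded INSIG1 in each PZT-2 library. SCAP to SREBF2 was 0.560 and 0.661 in PANC-1 and 2.46 and 2.68 in PZT-2. The ratio of INSIG1 to SREBF2 was 0.972 and 1.23 in PANC-1 and 0.494 and 0.583 in PZT-2. SREBF1 to SREBF2 was 1.40 and 1.25 in PANC-1 and 0.970 and 0.968 in PZT-2. None of these ratios overlapped between the lines, and the ratios themselves were not tested.

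The pathway around these genes was described with 5 lists of other genes, written with earlier results of these data known. The median log2 fold change of all genes tested was 0.00. Of 24 genes of SREBP processing and turnover, 5 rose and 3 fell, where 14.7% and 13.7% of all genes tested did. The median of this list was 0.00. The 2 largest called differences in each direction were RNF145, a ubiquitin ligase of the endoplasmic reticulum (log2 fold change 0.75, edgeR adjusted p = 0.00235), SEC23A of the vesicle coat that carries cargo to the Golgi (log2 fold change 0.54, adjusted p = 0.00640), LPIN1, a phosphatidate phosphatase (log2 fold change -0.82, adjusted p = 0.00119) and PGRMC1, a heme-binding membrane protein (log2 fold change -0.60, adjusted p = 0.00448). This list held called genes in both directions, in shares near those of all genes tested, and 4 in place of 8 were called when either PZT-2 library was left out.

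All 22 enzymes of cholesterol synthesis fell, where 13.7% of all genes tested did, with a median of -0.91. The lines did not overlap for any of them, nor for 66.3% of all genes tested. ACAT2, which condenses acetyl-CoA at the start of the pathway, had 1393 and 1412 normalized counts in PANC-1 and 314 and 348 in PZT-2 (log2 fold change -2.08, edgeR adjusted p = 6.20e-05). Of 17 enzymes of fatty acid synthesis, 11 fell, 1 rose and 5 did not pass, and the median was -0.54 (13.7% of all genes tested fell and 14.7% rose).

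Desaturases stood at both ends of the fatty acid list. SCD, the main stearoyl-CoA desaturase, had 21141 and 15716 normalized counts in PANC-1 and 715 and 669 in PZT-2 (log2 fold change -4.74, edgeR adjusted p = 6.01e-05). FADS2, which desaturates polyunsaturated fatty acids, had a log2 fold change of -3.80 (edgeR adjusted p = 6.20e-05). SCD5, a further stearoyl-CoA desaturase, was the member of the list that rose, with 33.8 and 34.3 in PANC-1 and 88.6 and 90.0 in PZT-2 (log2 fold change 1.39, edgeR adjusted p = 0.00406).

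Of 29 genes of lipoprotein uptake and intracellular sterol transport, 24 were tested, of which 9 rose and 6 fell, where 14.7% and 13.7% of all genes tested did, and the median was 0.18. LRP1, a large receptor of the lipoprotein receptor family, rose from 261 and 223 normalized counts to 762 and 626 (log2 fold change 1.52, edgeR adjusted p = 0.000748). GRAMD1C, a sterol transfer protein at membrane contacts, also rose (log2 fold change 1.16, edgeR adjusted p = 0.00891), and LIPA, the lysosomal lipase that frees cholesterol from taken-up lipoproteins, fell (log2 fold change -0.85, edgeR adjusted p = 0.000447). Of 25 genes of the liver X receptor axis and sterol efflux, 18 were tested, with a median of -0.23. Of these, 2 rose and 7 fell, beside the same 14.7% and 13.7% of all genes tested. Among the 7 is MLXIPL, with 22 and 9 counts in PANC-1 and 0 and 2 in PZT-2. It had enough counts to be tested only through PANC-1, where it is high, so its call adds nothing to this count. CYP27A1, which makes an oxysterol (log2 fold change 0.76, edgeR adjusted p = 0.0359), and the transporter ABCA2 (log2 fold change 0.52, edgeR adjusted p = 0.00283) rose. LPCAT3, which remodels phospholipids (log2 fold change -1.05, edgeR adjusted p = 0.000938), and NCOA5 (log2 fold change -0.81, edgeR adjusted p = 0.000704) fell. Both lists held called genes in both directions. Which genes of either list lie on chromosome 3, where 48.1% of genes tested were called higher, was not examined. When PZT-2 replicate 2 was left out, 7 in place of 15 genes of the uptake list were called, and 4 in place of 9 genes of the efflux list were called with either PZT-2 library left out.

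**Figure D4:**
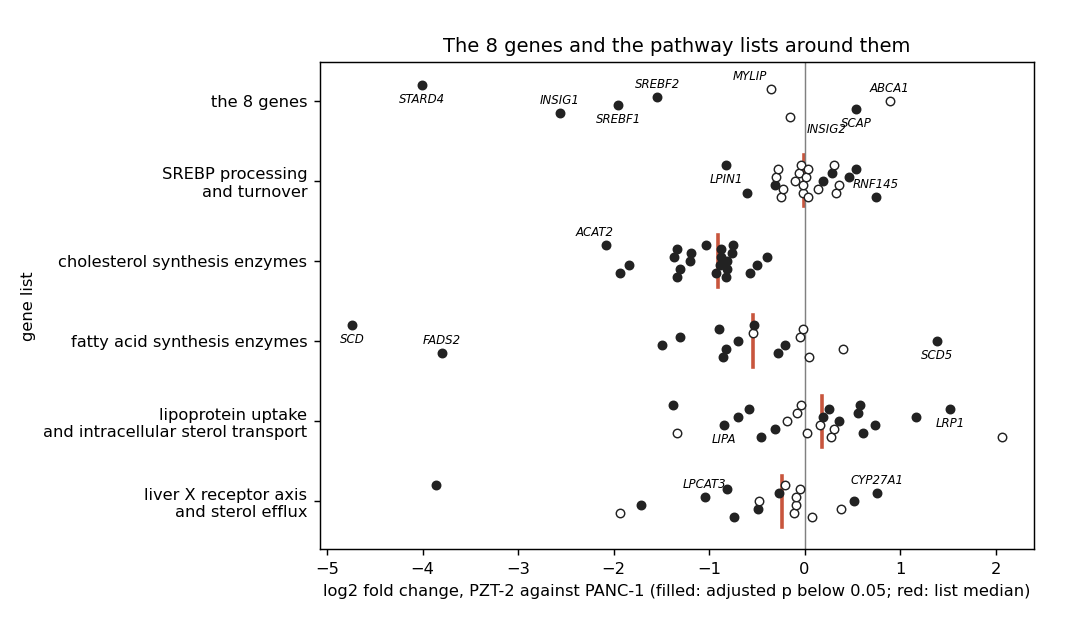
Log2 fold change of PZT-2 against PANC-1 for the 8 genes and for each gene of the 5 lists, with filled circles for an edgeR adjusted p under 0.05, open circles for the rest and a red line at the median of each list. All 22 cholesterol synthesis enzymes lie to the left of 0 around a median of -0.91, while the processing list is centred at 0.00 and the 8 genes range from -4.00 to 0.89.

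STARD4 had the largest log2 fold change of the called members, although it had enough counts to be tested only through PANC-1. Among 10052 genes that averaged at least 100 normalized counts, those nearest to it in pattern over the 4 libraries were FADS2, GLUL, which makes glutamine, and RRAGD, a GTPase of lysosomal nutrient sensing. Their Euclidean distances in centred log2 counts were 0.324, 0.433 and 0.454. GLUL had 551 and 544 normalized counts in PANC-1 and 52.3 and 43.5 in PZT-2 (log2 fold change -3.51, edgeR adjusted p = 6.01e-05). RRAGD had 390.5 and 344 in PANC-1 and 46.3 and 27.7 in PZT-2 (log2 fold change -3.31, edgeR adjusted p = 0.000306). With 4 libraries in 2 lines, likeness mostly reflects a difference of like size between the lines. The 3 genes were picked by this likeness, so their log2 fold changes and adjusted p add no support of their own. The 5 counts of STARD4 in PZT-2 also leave its own position loose.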

How the data were processed

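mRNA of 2 PANC-1 and 2 PZT-2 libraries (stranded mRNA libraries, paired reads) was re-analysed. PSCR libraries, which the study also describes, are not analysed here, and 0 sample columns were left unused. Per the submitters' processing notes, the authors trimmed reads with Trim Galore 0.4.1, estimated RefSeq transcripts with kallisto 0.43.0 and exported them with sleuth 0.29.0 (hg19). The deposited table holds estimated counts and TPM per transcript and library, both made by the authors. The columns of effects, p-values and q-values that the authors deposited hold their own comparison and were not used. Of 31959 transcripts that they tested, 1589 have no counts in the table used here.

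In the deposited table, the estimated counts of a library had been multiplied by 1 factor (1.16 and 0.935 for PANC-1, 1.03 and 1.01 for PZT-2). Once it was undone, 49.0% to 50.1% of values from 0.5 to 30 in genes with 1 transcript were whole within 0.01, against 0.635% to 2.71% as deposited. Counts were rounded and summed per gene. Of 31077 transcripts, 27049 were named by their symbol, 3925 by accession in RefSeq (GRCh38.p14, used for names, chromosomes and neighbours), and 103 stayed unnamed with 0.0466% of counts, left out of the gene sums. Genes and transcripts with at least 5 counts in at least 2 libraries were tested with edgeR 4.0.16 in R 4.3.3 (TMM, quasi-likelihood test, no block, Benjamini-Hochberg over all genes or all transcripts, threshold 0.05). The script was also tested on simulated counts. Replicates differed beyond counting noise. TPM was summed per gene and not tested.

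Members, lists and tests were chosen with earlier results of these data known. Named are the 8 genes and their transcripts, the knockdown targets, the 2 called genes of each list with the largest log2 fold change in each direction and a mean of at least 50 normalized counts, and the 3 genes nearest to the called member with the largest log2 fold change. INSIG1, SREBF2 and SCAP transcripts, the markers and the genes in figures follow the same fits. Results for some genes the rule names are not reported here. Alternatives were RLE size factors, DESeq2 1.42.0, no filter, at least 10 counts in all 4 libraries, limma 3.58.1 on log2(TPM + 1) and log2(TPM + 0.1), a replicate block, counts as deposited, each library left out, length-scaled counts and the most abundant transcript alone. Transcripts with a symbol in the table only was added after seeing the data.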

Additional observations from a re-analysis of the deposited data

How the results depend on the processing

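Of the 8 genes, 4 or 5 were called under all 15 alternatives. SREBF1, SREBF2, SCAP and INSIG1 stayed called in each, with log2 fold changes of -2.38 to -1.71, -1.70 to -1.39, 0.50 to 0.57 and -2.62 to -2.18. STARD4 stayed called in the 12 alternatives that tested it (-4.32 to -1.03, the last with limma on log2(TPM + 1)), and it could not be fitted without either PANC-1 library or with at least 10 counts in all 4 libraries. MYLIP (adjusted p 0.0514 to 0.470) and ABCA1 (0.0515 to 0.437) were called in 0 of 15. INSIG2, at -0.15, ranged from -1.15 to 0.86 with a library left out, the positive value without PZT-2 replicate 2.

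Transcripts of SREBF1 called numbered 0, against 2 with DESeq2, 2 with at least 10 counts in all 4 libraries and 1 with limma on log2(TPM + 1), and 0 without any 1 library. Calls in the processing list (8) were 4 to 11 without 1 library, 4 with either PZT-2 replicate left out, and 5 from the most abundant transcript alone. Those in the uptake list (15) were 7 to 16 without 1 library (7 when PZT-2 replicate 2 was dropped) and 9 from the most abundant transcript alone. Those in the liver X receptor list (9) were 5 with DESeq2, 4 to 8 without 1 library, 4 without either PZT-2 replicate, and 4 from the most abundant transcript alone. Cholesterol enzymes called numbered 18 to 22 and fatty acid enzymes 8 to 12. All genes called numbered 4290, against 2314 and 1866 once PZT-2 replicate 1 or 2 was left out and 2132 from the most abundant transcript alone. The cause of these moves was not tested.

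Over all genes, samples with the same replicate number did not deviate together (correlation -0.0242). This value over all genes cannot tell whether the numbers pair the libraries for single genes. INSIG2 was high in replicate 1 and at or near 0 in replicate 2 of both lines. Its log2 fold change was -0.40 with the number as a block. With the number as a block, 5 of the 8 genes and 3701 genes in all were called.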
